A study of Mus musculus with 6 samples.

Results

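LIM-homeodomain (LIM-HD) transcription factors and the LIM-domain proteins that act with them were examined as a family in the developing mouse retina. The family was taken by gene symbol and holds 10 of the 21744 genes listed, namely the LIM-HD genes *Lhx1*, *Lhx2*, *Lhx3*, *Lhx4*, *Lhx9*, *Isl1*, and *Isl2*, the LIM-only gene *Lmo4*, and the LIM-domain-binding cofactors *Ldb1* and *Ldb2*. Whole retinas were collected at postnatal day 7 (P7) from 3 control mice and 3 *Lhx4* mutant mice, as the sample titles name them. The paper calls the mutant mice *Lhx4* null. The retinas of each mouse gave 1 RNA-seq library, called a control or a null-labelled library here. In the study the null genotype combined a tdTomato knock-in allele and a loxP allele of *Lhx4* with *Six3*-*Cre* (*Lhx4* tdT/loxP; *Six3*-*Cre*), whose Cre is active in the retina. Controls differed by experiment: those for retinal recordings were wild type or *Lhx4* loxP/+, while those for tdTomato imaging carried the knock-in allele without Cre. Where the controls carried neither Cre nor the knock-in allele, effects of these cannot be told apart from loss of *Lhx4*. The labels do not say which genotype the control libraries had, nor the sex of the mice, and both groups were on a mixed C57BL/6J and 129S6 background. The values are FPKM, the fragments of a gene per length of the gene and per mapped fragments, so that levels can be set side by side between genes.

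A LIM-HD protein binds DNA through its homeodomain and binds LDB cofactors through its pair of LIM domains. LDB proteins dimerize and so bridge LIM-HD proteins into larger complexes, which in motor neurons pair an ISL factor with LHX3 or LHX4, and LIM-only proteins such as LMO4 compete for the same LDB surface without binding DNA. In the retina, members of the family are known as markers and regulators of single cell classes, among them *Lhx1* in horizontal cells, *Isl1* in ON bipolar, cholinergic amacrine, and ganglion cells, *Lhx2* in progenitors and Müller glia, and *Lhx4* in bipolar and cone cells.

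All 10 genes were measured in every library and all were among the 15200 genes whose mean reached 0.1 FPKM and were tested. *Lhx3* and *Isl1* were lower in null-labelled than in control libraries, by 2.67-fold and 1.63-fold, and no member was higher at an adjusted p under 0.05 (limma on log2(FPKM + 0.1), two-sided, Benjamini-Hochberg adjustment over 15200 genes). These 2 of 10 genes stand beside 0.138% of all genes tested that were lower and 0.0855% that were higher by the same rule. *Lhx4* itself read 1.42-fold higher in the null-labelled libraries and did not pass the threshold. The 3 libraries of a group lay wholly on one side of the other group for 6 members, *Lhx3*, *Isl1*, and *Lmo4* below and *Lhx4*, *Lhx2*, and *Isl2* above, where 6.13% and 8.1% of all genes tested were separated in these directions and 14.2% in either. At an unadjusted p under 0.05 (limma), 3 members were lower and 3 were higher, beside 3.55% and 4.6% of all genes. The median log2 fold change of the 10 members was 0.19, beside 0.01 over all genes.

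**Figure D1:**
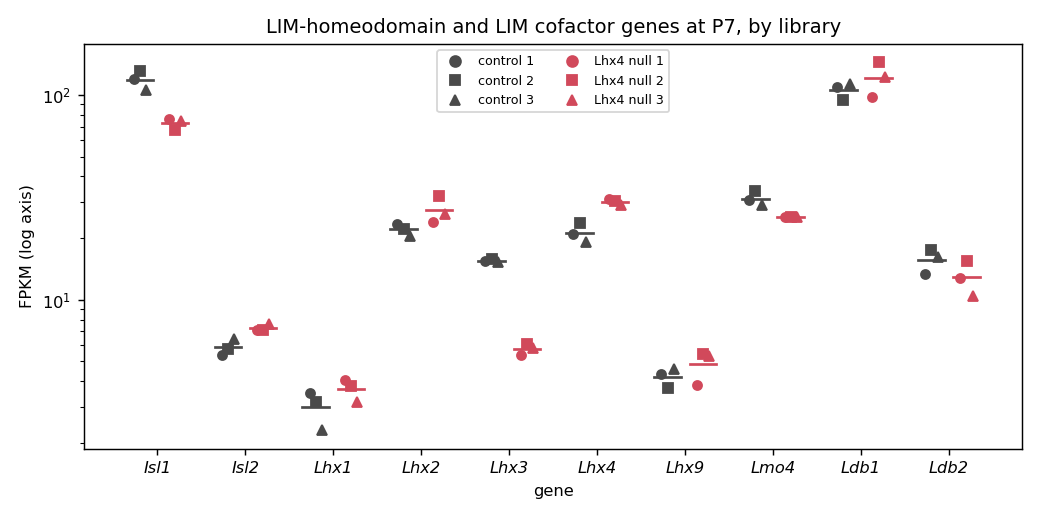
FPKM of the 10 LIM-HD and LIM cofactor genes in each library on a log axis, with control libraries in grey, null-labelled libraries in red, a symbol for each replicate, and a line at each group mean. *Lhx3* sits between 15.3 and 15.8 FPKM in the controls and between 5.40 and 6.11 FPKM in the null-labelled libraries, while *Ldb1* and *Lhx9* overlap between the groups.

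The whole table gives the setting of these values. The depth of each library was estimated from the steps between low FPKM values and lay between 77.0% and 100% of the deepest library in the controls and between 46.8% and 65.9% in the null-labelled libraries, so every control library was deeper. The same steps showed that the libraries had been scaled with different length corrections: control replicates 1 and 3 and *Lhx4* null replicate 3 shared a correction of 163 to 167 bases, and the others one of 172 to 174 bases. Markers of the retina's own cell classes were present in every library, and the summed FPKM of 7 bipolar markers ran from 791 to 852 in the controls and from 704 to 802 in the null-labelled libraries. The summed levels of 6 cone markers (333 to 479 against 538 to 659 FPKM) and 5 pigment epithelium markers (16.8 to 35.2 against 38.1 to 67.9 FPKM) were higher in every null-labelled library, although the pigment epithelium had been removed by dissection. So was the sum of 7 amacrine markers (404 to 433 against 446 to 498 FPKM). *Ttr* and *Pmel* made up most of the pigment epithelium sum and did not overlap between the groups. Their means were 19.96 and 6.263 FPKM in the controls and 37.2 and 12.64 FPKM in the null-labelled libraries. *Rpe65* and *Tyr* were higher with overlap, and *Best1* was lower with overlap. Of these 5 markers, 0 passed at an adjusted p under 0.05 (limma). The cone markers did not all run one way, as 4 of 6 were higher and 2 lower by log2 fold change. Only *Opn1sw*, the short-wavelength opsin, passed (93.6 and 172.6 FPKM, limma adjusted p = 0.0306). *Arr3*, the cone arrestin, read 29.6 and 12.7 FPKM without overlap (limma adjusted p = 0.0769). The part of these cells in the members' values was not tested. In RNA from whole tissue, fewer cells of a type and less RNA per cell cannot be told apart.

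The positions of the members were taken by Ensembl identifier from the GENCODE vM21 annotation of GRCm38, and their start-site regions from RefSeq on GRCm38.p6, in which 9 of the 10 members, all but *Ldb2*, were matched. The 9 genes had 15 annotated start sites. The 250 bases before each were searched on both strands for TAATTA, a core homeodomain site that reads the same on either strand, and for TAATCC, the site of the OTX and CRX homeodomain class. TAATTA was found in 0 of the 15 windows and in 4.84% of all 32851 windows, and TAATCC was found in 1 of the 15, that of *Isl1*, and in 6.25% of all. These matches are letters only and say nothing of binding. The start-site regions of the 3 genes on which the comparisons below turn are shown 5′ to 3′ on the gene's own strand, up to the first annotated exon base, with the TAATCC match in capitals. They cover chr2:26208290-26208499 for *Lhx3*, chr1:155742028-155742277 for *Lhx4*, and chr13:116309690-116309938 for *Isl1*, all on the minus strand.
Lhx3: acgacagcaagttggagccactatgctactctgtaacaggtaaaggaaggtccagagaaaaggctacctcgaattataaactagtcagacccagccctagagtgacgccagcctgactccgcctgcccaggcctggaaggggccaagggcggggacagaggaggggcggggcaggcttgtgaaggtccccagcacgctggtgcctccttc
Lhx4: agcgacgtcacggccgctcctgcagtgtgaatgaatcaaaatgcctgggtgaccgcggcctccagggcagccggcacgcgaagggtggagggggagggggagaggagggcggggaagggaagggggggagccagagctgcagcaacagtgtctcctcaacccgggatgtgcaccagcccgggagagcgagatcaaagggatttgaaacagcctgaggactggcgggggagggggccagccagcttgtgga
Isl1: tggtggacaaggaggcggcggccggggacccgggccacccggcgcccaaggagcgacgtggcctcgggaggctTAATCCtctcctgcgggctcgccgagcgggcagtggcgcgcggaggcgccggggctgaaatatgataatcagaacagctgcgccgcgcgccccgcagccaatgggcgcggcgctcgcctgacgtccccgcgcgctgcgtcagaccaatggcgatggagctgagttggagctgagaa
The match in the *Isl1* window begins 177 bases before the start site. The *Lhx3* gene has another annotated start site inside the gene, which is not shown, and its window held neither motif. The *Lhx4* window that is shown also lies inside the annotated gene, whose 5′ end is at chr1:155751684. GC content was 62.0% for the *Lhx3* window, 66.0% for *Lhx4*, and 71.2% for *Isl1*, where the median of all windows was 52.4%.

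Of the LIM-HD factors, *Lhx4* was the targeted gene. *Lhx4* (ENSMUSG00000026468, chr1:155698031-155751684, minus strand) read 20.9, 23.8, and 19.1 FPKM in the controls. The null-labelled libraries read 31.2, 30.3, and 29.0 FPKM. Every null-labelled library was therefore above every control. For this reason the groups are named throughout by their titles, with null as the paper's word for mutant. The label alone does not give the direction of a value over all exons. In the paper, tdTomato from the knock-in allele followed endogenous LHX4 expression, and whether reads of that allele were counted was not tested. Other transcripts had lower means in the null-labelled libraries, among them *Grm6*, the glutamate receptor of ON bipolar cells (60.5 and 21.3 FPKM), and *Bhlhe23*, a bipolar transcription factor (11.3 and 0.736 FPKM). The paper reported *Grm6* and *Bhlhe23* as lower from these same libraries, so they are no separate check of the labels. Of the 15200 genes tested, 7096 were lower by log2 fold change. The means of *Lhx4* were 21.2 ± 2.38 and 30.2 ± 1.1 FPKM (SD, n = 3 each), and its log2 fold change was 0.51 (SE 0.09, 95% interval 0.30 to 0.72, limma adjusted p = 0.0978). The gene ranked 71st of the 15200 by unadjusted p (4.57e-04 from limma). Since 1 value is given per gene over all its exons, the table does not show which exons were read, and whether the loxP-flanked part was missing was not tested.

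*Lhx3* (ENSMUSG00000026934, chr2:26200212-26208289, minus strand) is the paralogue closest to *Lhx4* and shares its roles in the pituitary and in motor neurons. The controls read 15.4, 15.8, and 15.3 FPKM, within a coefficient of variation of 1.74%. The null-labelled libraries read 5.40, 6.11, and 5.82 FPKM, with a coefficient of variation of 6.2%. The gap between the groups was wider than the spread within either, and the means of 15.5 ± 0.27 and 5.77 ± 0.358 FPKM (SD, n = 3 each) gave a log2 fold change of -1.41 (SE 0.08, 95% interval -1.60 to -1.23, limma adjusted p = 7.4e-04). *Lhx3* had the 2nd smallest p of all genes tested, and 0.342% of genes had a larger log2 fold change in either direction. About 190 to 200 fragments lay behind its lowest value, which alone gives a counting error of up to 7.2%. Of its exon bases, 6.17% overlap the antisense gene Gm27196, and since the sources used here do not say whether counting used strand, reads of that part cannot be assigned to one gene.

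*Lhx3* was lower within each set of libraries that shared a length correction. The difference was -1.39 on the log2 scale between 2 control libraries and 1 null-labelled library, and -1.45 between 1 control library and 2 null-labelled libraries. With the set entered as a term of the limma model, an alternative chosen after seeing the data, the log2 fold change was -1.42 (adjusted p = 0.004). The corresponding within-set values of *Lhx4* were 0.54 and 0.37, both upward. The longest run of identical bases between the coding sequences of *Lhx3* and *Lhx4* (transcripts Lhx3-201 and Lhx4-201) was 20 bases. It lay at coding positions 577 to 596 of *Lhx3*. The run describes exact matches only, and whether reads were split between the paralogues was not tested.
Lhx3 and Lhx4: gagcagctctcctccgagac

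*Isl1* (ENSMUSG00000042258, chr13:116298281-116309689, minus strand), which is needed for the differentiation of ON bipolar and ganglion cells, was the most abundant LIM-HD transcript in both groups. Control replicates 1, 2, and 3 read 119.7, 131, and 106 FPKM. The null-labelled libraries read 76.2, 67.4, and 74.7 FPKM. All 3 lay below the lowest control, and the log2 fold change was -0.70 (SE 0.09, 95% interval -0.92 to -0.49, limma adjusted p = 0.0306) between means of 119 ± 12.3 and 72.8 ± 4.73 FPKM (SD, n = 3 each). The call depended on settings and on single libraries. With all 6 libraries kept, the adjusted p from limma was 0.0844 with no filter on low values, 0.136 with no mean-variance trend, and 0.12 with the replicate block. It was 0.139 without control replicate 1, 0.0878 without control replicate 2, and 0.0523, 0.153, and 0.107 without *Lhx4* null replicates 1, 2, and 3, with log2 fold changes between -0.63 and -0.78 when any 1 library was left out. Control replicate 2, the library with the highest *Isl1*, also had the highest sum of the controls for most marker lists. Among these were rod (3510 FPKM beside 3090 and 3030), bipolar (852 beside 821 and 791), and ganglion markers (300 beside 272 and 277). Its cone sum (333 FPKM beside 479 and 468) and cholinergic amacrine sum (23.6 beside 25.2 and 23.7) were the lowest of the controls. Its pigment epithelium sum lay between the others. Within the sets that shared a length correction, the difference was -0.59 and -0.87, and with the set as a term the adjusted p from limma was 0.0497.

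*Isl1* is transcribed in more than 1 retinal class, and the markers of these classes were read beside it. The summed level of the 7 bipolar markers overlapped between the groups, with 2 of the 3 null-labelled libraries below the lowest control. *Otx2* (314.8 and 335.8 FPKM) and *Gnb3* (344.5 and 346.9 FPKM) made up most of that sum. The 8 ganglion cell markers summed to 272 to 300 FPKM in the controls and 272 to 294 FPKM in the null-labelled libraries, and the 5 cholinergic amacrine markers to 23.6 to 25.2 and 28.2 to 33.3 FPKM. *Sox2* (11.4 and 15.3 FPKM) and *Megf10* (6.62 and 8.50 FPKM) made up most of the cholinergic sum, and the paper used SOX2 to label Müller glia. Only *Megf10* of the 5 did not overlap, while *Chat* read 2.075 and 2.281 FPKM with overlap. Of the bipolar markers, 2 of 7, *Grm6* and *Scgn*, were lower at an adjusted p under 0.05 and 0 were higher (limma). At an unadjusted p under 0.05, 4 of 7 were lower, and 3 of 7 did not overlap between the groups: *Grm6* (2.81-fold lower), *Scgn* (3.32-fold lower), and *Trpm1*, which read 35.7 and 15.7 FPKM (limma adjusted p = 0.088). Of the ganglion and cholinergic markers 0 of 8 and 0 of 5 passed in either direction, while 1 of 8 and 2 of 5 were higher at an unadjusted p under 0.05 (limma). *Nefl* (97.8 and 94.4 FPKM) and *Sncg* (97.7 and 94.7 FPKM) made up most of the ganglion sum. Without overlap and higher in the null-labelled libraries were 2 of 8 ganglion markers, *Pou4f1* (10.5 and 12.7 FPKM) and *Pou4f2* (3.83 and 4.48 FPKM), beside 8.1% of all genes tested. Over all genes tested, 3.55% were lower and 4.6% higher at that unadjusted threshold. At an adjusted p under 0.05, 0.138% were lower, and 6.13% were separated with the null-labelled libraries below. The part of these cell classes in the *Isl1* and *Lhx3* values was not tested.

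Its paralogue *Isl2* (ENSMUSG00000032318, chr9:55538672-55546180, plus strand), a factor of a subset of ganglion cells, was at a much lower level. Controls read 5.38, 5.78, and 6.43 FPKM, and the null-labelled libraries read 7.15, 7.15, and 7.59 FPKM. The groups did not overlap, with the null-labelled libraries on the higher side. The log2 fold change of 0.31 (SE 0.10, 95% interval 0.09 to 0.54) had an unadjusted p of 0.0122 and an adjusted p of 0.484 from limma, so the difference did not pass. The longest identical coding run of the pair (transcripts Isl1-201 and Isl2-201) was 23 bases, again a description of exact matches only.
Isl1 and Isl2: cggactgtgctcaacgagaagca

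*Lhx2* (ENSMUSG00000000247, chr2:38339281-38369733, plus strand), required for eye formation and later for Müller glia, read 23.5, 22.2, and 20.4 FPKM in the controls. The null-labelled libraries read 23.8, 32.1, and 26.2 FPKM. The groups were separated by a margin smaller than the spread within either, 23.5 against 23.8 FPKM, and the log2 fold change was 0.30 (SE 0.11, 95% interval 0.04 to 0.56, limma adjusted p = 0.575). The summed level of 7 Müller glia markers ran from 336 to 367 FPKM in the controls and from 366 to 400 FPKM in the null-labelled libraries, and its part in the *Lhx2* values was not tested.

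The remaining LIM-HD members were low and overlapped between the groups. *Lhx9* (ENSMUSG00000019230, chr1:138825186-138848577, minus strand), the paralogue of *Lhx2*, read 4.36, 3.69, and 4.57 FPKM in the controls and 3.83, 5.43, and 5.31 FPKM in the null-labelled libraries. *Lhx1* (ENSMUSG00000018698, chr11:84518284-84525535, minus strand), which positions horizontal cells, read 3.49, 3.16, and 2.30 FPKM and 4.07, 3.81, and 3.16 FPKM. Neither passed: the 95% intervals of the log2 fold change were -0.17 to 0.55 for *Lhx9* (limma adjusted p = 0.772) and -0.09 to 0.71 for *Lhx1* (limma adjusted p = 0.689), so changes of up to 1.47-fold and 1.63-fold upward lay inside them. The summed level of 6 horizontal cell markers was 193 to 207 FPKM in the controls and 198 to 220 FPKM in the null-labelled libraries. *Sept4* (85.1 and 78.5 FPKM), *Tfap2b* (64.2 and 74.4 FPKM), and *Prox1* (40.0 and 44.6 FPKM) made up most of that sum. *Tfap2b* was also among the amacrine markers. For *Lhx1*, counting error alone reached up to 26% in the library with the fewest fragments, as far as the annotated transcript lengths bound it.

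**Figure D2:**
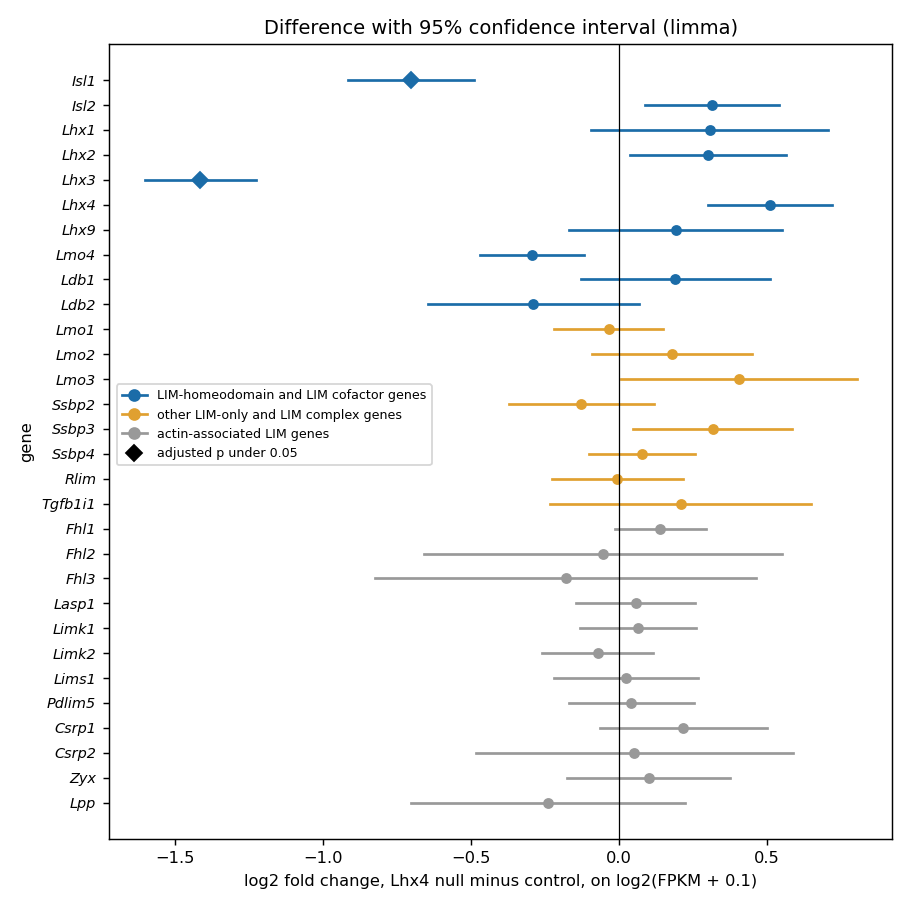
Log2 fold change of each LIM-HD and LIM cofactor gene (blue) and of other genes with LIM domains or in LIM complexes, as *Lhx4* null minus control on log2(FPKM + 0.1), with 95% confidence intervals from limma. The diamonds of *Lhx3* (-1.41) and *Isl1* (-0.70) mark the genes at an adjusted p under 0.05, and no gene of the other lists (orange and grey) passed it.

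*Lmo4* (ENSMUSG00000028266, chr3:144188530-144205220, minus strand), the LIM-only member, read 30.6, 33.9, and 28.9 FPKM in the controls. The null-labelled libraries read 25.3, 25.4, and 25.2 FPKM, within 0.414% of one another as a coefficient of variation. All 3 were below the lowest control, and the log2 fold change was -0.29 (SE 0.08, 95% interval -0.47 to -0.12), with an unadjusted p of 0.00454 and an adjusted p of 0.349 from limma. The difference therefore did not pass over all genes, and the separation of the groups was shared by 6.13% of all genes in this direction.

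*Ldb1* (ENSMUSG00000025223, chr19:46031570-46045214, minus strand), the main LDB cofactor, was about as abundant as *Isl1* in the controls. It read 109, 94.7, and 113 FPKM in the controls and 97.5, 144, and 122 FPKM in the null-labelled libraries. The groups overlapped and the spread was wider in the latter, 19.3% against 8.97% as a coefficient of variation. The log2 fold change of 0.19 (SE 0.14, 95% interval -0.13 to 0.51, limma adjusted p = 0.741) did not pass. Of its exon bases, 3.84% overlap Pprc1 on the opposite strand.

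*Ldb2* (ENSMUSG00000039706, chr5:44472132-44799680, minus strand) was the minor cofactor. The controls read 13.4, 17.5, and 16.1 FPKM, and the null-labelled libraries read 12.8, 15.5, and 10.4 FPKM. The groups overlapped, with a log2 fold change of -0.29 (SE 0.16, 95% interval -0.65 to 0.07, limma adjusted p = 0.68). *Ldb1* made up 87.0 ± 2.38% of the sum of both cofactors in the controls and 90.3 ± 1.88% in the null-labelled libraries (SD, n = 3 each).

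The order of the members by level differed between the groups at its top and in its middle. In the controls *Isl1* and *Ldb1* led, at 119 and 105 FPKM with overlapping ranges, followed by *Lmo4* at 31.1 FPKM. *Lhx2* and *Lhx4* came next and did not differ beyond their spread, then *Ldb2* and *Lhx3*, which likewise overlapped, and *Isl2*, *Lhx9*, and *Lhx1* followed with separate ranges. In the null-labelled libraries, *Ldb1* stood above *Isl1* in all 3 libraries. *Lhx4*, *Lhx2*, and *Lmo4* formed a run of neighbours with overlapping ranges, and *Lhx3* came after *Isl2*, beside *Lhx9* and *Lhx1*.

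The 7 LIM-HD members together summed to 193, 205, and 174 FPKM in the controls and to 152 FPKM in each null-labelled library. The pool was thus smaller and of more even size in the latter, 191 ± 15.5 against 152 ± 0.335 FPKM (SD, n = 3 each). *Isl1* made up 62.2 ± 1.39% of it in the controls and 47.9 ± 3.21% in the null-labelled libraries, and *Lhx3* 8.18 ± 0.555% and 3.8 ± 0.228%. The mean shares of the other 5 were larger in the null-labelled libraries. That of *Lhx4* was 11.1 ± 0.413% and 19.9 ± 0.733%, that of *Lhx2* 11.6 ± 0.68% and 18.0 ± 2.75%, and those of *Isl2*, *Lhx9*, and *Lhx1* were 3.1, 2.23, and 1.56% beside 4.8, 3.2, and 2.42%. Because shares sum to a whole, a lower *Isl1* raises the share of every other factor, and no test was run on them.

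**Figure D3:**
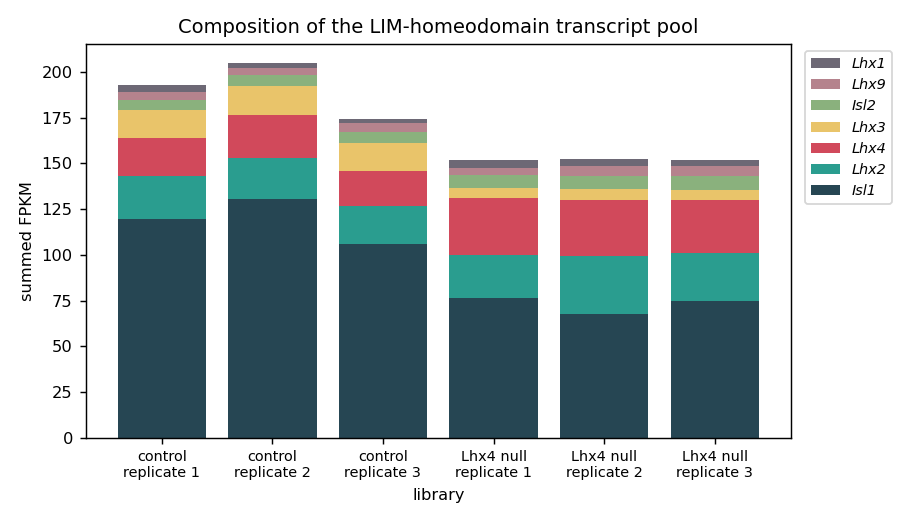
Summed FPKM of the 7 LIM-HD members in each library, with the height of each colour giving 1 gene's FPKM. The bars reach 174 to 205 FPKM in the controls and 152 FPKM in the null-labelled libraries, where the *Isl1* and *Lhx3* segments are shorter and the *Lhx4* segment is taller.

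Ratios between members in the same library do not depend on the scaling between libraries, and 6 of them were compared by an exact permutation test, two-sided, in which 3 libraries against 3 cannot go below p = 0.1. The ratio of *Lhx4* to *Lhx3* was 1.35, 1.5, and 1.24 in the controls and 5.78, 4.97, and 4.98 in the null-labelled libraries. It was thus 3.84-fold higher, by 1.94 on the log2 scale (SE 0.11, exact permutation p = 0.1, adjusted over the 6 ratios 0.2). *Lhx4* to *Isl1* went from 0.179 ± 0.00395 to 0.416 ± 0.0317, and *Lhx3* to *Isl1* from 0.132 ± 0.0118 to 0.0798 ± 0.0101 (SD, n = 3 each), both without overlap and at the same exact permutation p of 0.1. The difference between the groups was thus larger for *Lhx3* than for *Isl1*, with a log2 difference of the ratio of -0.73 (SE 0.13).

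The ratios that involve the cofactors overlapped between the groups. The summed LIM-HD pool over *Ldb1* plus *Ldb2* was 1.59 ± 0.237 in the controls and 1.16 ± 0.211 in the null-labelled libraries (SD, n = 3 each; log2 difference -0.46, exact permutation p = 0.2, adjusted 0.2). *Lmo4* to *Ldb1* and *Ldb2* to *Ldb1* differed by -0.49 (SE 0.22) and -0.48 (SE 0.25) on the log2 scale, again at an exact permutation p of 0.2.

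**Figure D4:**
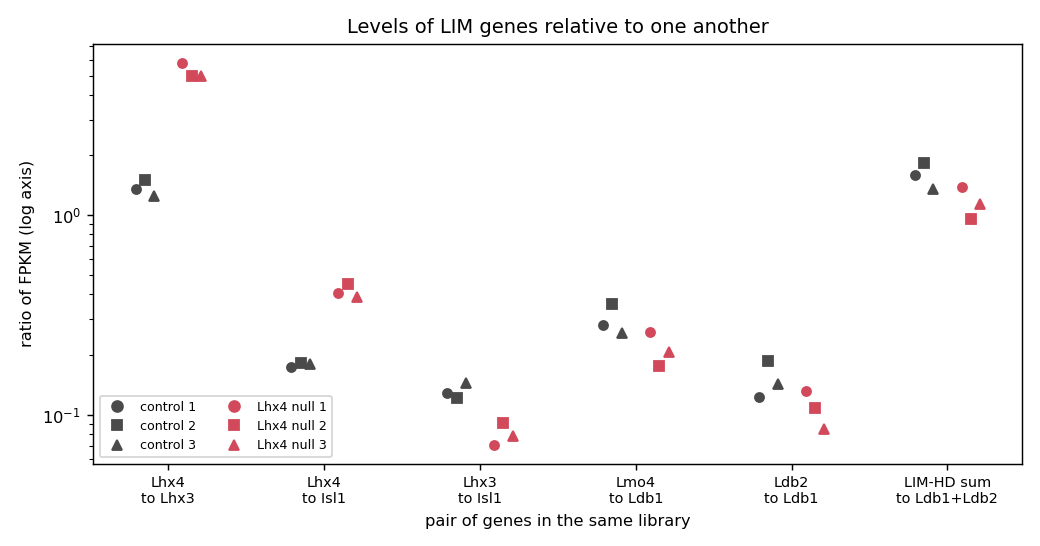
Ratio of FPKM within each library on a log axis for 6 pairs of quantities, with control libraries in grey and null-labelled libraries in red. The ratio of *Lhx4* to *Lhx3* lies between 1.24 and 1.5 in the controls and between 4.97 and 5.78 in the null-labelled libraries, and the 3 ratios over *Ldb1* or over *Ldb1* plus *Ldb2* overlap.

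Other genes with LIM domains, or whose products sit in LIM complexes, were read from the same fit. The LIM-HD genes *Lhx5*, *Lhx6*, *Lhx8*, *Lmx1a*, and *Lmx1b* had means under 0.1 FPKM and were not tested. Of the 8 other LIM-only and LIM complex genes tested, 0 passed at an adjusted p under 0.05, 2 were higher and 0 lower at an unadjusted p under 0.05 (limma), and their median log2 fold change was 0.13. *Lmo3*, a LIM-only gene, read 1.13 ± 0.146 and 1.54 ± 0.241 FPKM (SD, n = 3 each; log2 fold change 0.41, limma adjusted p = 0.608). *Ssbp3*, whose product binds LDB1 and stabilizes it, read 84.8 ± 3.8 and 106.5 ± 17.1 FPKM (log2 fold change 0.32, limma adjusted p = 0.564), and its groups overlapped. *Lmo1* was close to *Lmo4* in level, with 29.1 and 28.4 FPKM in the groups, and had a log2 fold change of -0.03 with a 95% interval of -0.22 to 0.15. Among 12 genes of actin-associated LIM proteins, which lie outside these complexes, 0 passed even at an unadjusted p under 0.05 and the median log2 fold change was 0.05.

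**Figure D5:**
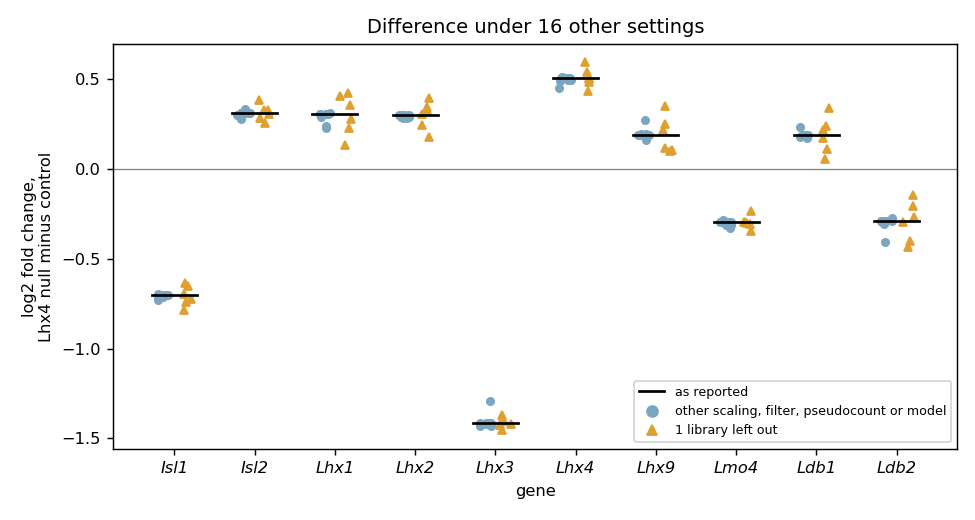
Log2 fold change of each LIM-HD and LIM cofactor gene (*Lhx4* null minus control) as reported (black line), under other scalings, filters, pseudocounts, and models (blue), and with 1 library left out (orange). *Lhx3* stays between -1.45 and -1.29 and *Isl1* between -0.78 and -0.63, and no gene crosses 0.

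The genes whose levels ran most like *Lhx3* over the 6 libraries, by Pearson's r of log2(FPKM + 0.1), were *Fezf2* (0.997), *Slitrk6* (0.992), *Grik1* (0.989), *Bhlhe23* (0.989), and *A730046J19Rik* (0.988). *Fezf2* encodes a zinc-finger transcription factor, *Grik1* a kainate receptor subunit, and *Bhlhe23* a basic helix-loop-helix factor. *Bhlhe23* had the widest gap of these, from 11.3 to 0.736 FPKM. For *Isl1* they were *Grm6* (0.996), *Ak4* (0.993), *Tert* (0.992), *Pcp2* (0.991), and *Dmbx1* (0.986), of which *Grm6* encodes the glutamate receptor of ON bipolar cells and fell from 60.5 to 21.3 FPKM. For *Lhx4* they were *Ucp2* (0.991), *Igfbp5* (0.990), *Kcnab1* (0.990), *BC051142* (0.990), and *Col9a3* (0.989), all at higher means in the null-labelled libraries. Among the members themselves, r was 0.952 for *Lhx3* and *Isl1*, 0.965 for *Isl1* and *Lmo4*, and -0.930 for *Lhx3* and *Lhx4*. The points share the 2 groups, so any gene that separates them scores high, and these values are a description without a test.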

How the data were processed

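RNA from the retinas of single P7 mice was sequenced by the authors as paired-end libraries, and per the labels the reads were mapped to GRCm38 with TopHat2 and quantified with Cufflinks, whose versions, annotation, and use of strand are not given in the sources used here. The deposited FPKM values are per gene, with no replicates pooled. Groups and replicate numbers came from the sample titles, where the null-labelled libraries are called *Lhx4* mutant, and 0 value columns were left unused. Each mouse gave 1 library, so the replicates are separate animals.

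The 15200 genes whose mean reached 0.1 FPKM were tested with limma 3.58.1 in R 4.3.3, which compared log2(FPKM + 0.1) between the 3 null-labelled and the 3 control libraries with a mean-variance trend and without further terms. Benjamini-Hochberg adjustment ran over all 15200 genes. Fold changes on this scale understate the change of low genes. The fit and the depth estimate were tested on simulated data. FPKM carry no counts, so no count model was used, and fragments per library were estimated from genes whose values are whole multiples of 1 fragment. These fragments are not known to be separate molecules, and errors from them cover counting only. Ratios were compared with Python 3.11.15 and scipy 1.17.1. GENCODE vM21 held 21603 of the 21744 identifiers. Where 6 symbols were repeated, the gene with the highest mean was used. Replicate numbers did not pair the libraries. Named were all members, other LIM genes with the smallest p, markers that define the tissue, and the 5 genes most like *Lhx3*, *Lhx4*, and *Isl1*. The members, gene lists, and ratios were chosen with earlier results of these data known. The alternatives changed the pseudocount, filter, scaling, variance model, and block, left out each library, and, added after seeing the data, entered the length-correction set as a term. A planned reference gene for further ratios, also a marker, is not reported here and was left out of the ratios and marker sums.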

Additional observations from a re-analysis of the deposited data

How the results depend on the processing

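Each gene was refitted under 16 alternatives: pseudocounts of 1 and 0.01 FPKM, no filter or a mean of at least 1 FPKM, median-of-ratios scaling, quantile normalization, no mean-variance trend, robust empirical Bayes, the replicate block, the length-correction set as a term, and each library left out. No member changed direction in any of them. *Lhx3* passed in all 16, with log2 fold changes from -1.45 to -1.29 and adjusted p from 4.83e-04 to 0.00953 (limma). *Lhx4* passed in 0 of 16 (adjusted p from 0.0826 to 0.39, limma). *Isl1* passed in 8 of 16, and where it did not, the number of members lower at an adjusted p under 0.05 was 1 in place of 2: with no filter (adjusted p = 0.0844), with no mean-variance trend (0.136), and with the replicate block (0.12), all from limma. That number ranged from 1 to 2 with 1 library left out. Over all genes, the calls fell from 34 to 20 with no filter and to 15 with the replicate block, and ranged from 15 to 31 with 1 library left out. Fewer residual degrees of freedom remain in the block and leave-one-out fits, and otherwise the cause was not tested. The replicate numbers are shared only as numbers: deviations of same-numbered libraries correlated at -0.13, 0.00, and 0.16, and the block changed no other member's call. All 6 ratios kept their direction in the 7 alternatives run for each, in which no exact p can pass. With all 6 libraries kept, 6 members did not overlap between the groups under median-of-ratios scaling or quantile normalization. With 1 library left out the number was 6 to 8, but fewer libraries separate more easily. The share of all genes without overlap was not computed for these alternatives. Depth limits *Lhx1* most, and FPKM per gene cannot show which *Lhx4* exons were read.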
